A study of Mus musculus with 37 samples.

Results

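Purine signalling in cortical astrocytes was examined through 10 genes, Adk, Ada, Entpd2, Nt5e, Slc29a1, Adora1, Adora2b, P2ry1, P2ry14 and Pfas, out of 21975 genes in each of the expression tables. The rows were found by gene symbol through their Ensembl identifiers, and all 10 were present for both hemispheres. The animals were wild-type male mice, which the study's methods give as the outbred CD1 stock and the sample labels as CD31. Severe controlled cortical impact (CCI), a unilateral focal brain injury, was given on the right side, and sham mice had a craniectomy. All mice, shams included, later carried implanted recording electrodes, and seizures on video EEG divided the injured mice into those with post-traumatic epilepsy (PTE+) and those without (PTE−). At 4 months after surgery the ipsilateral cortex gave 5 sham, 10 PTE− and 4 PTE+ libraries, and the contralateral cortex gave 5, 9 and 4. The 37 libraries came from 20 mice, of which 17 had both hemispheres, 5 of them sham, 9 PTE− and 3 PTE+. Astrocytes had been captured with magnetic beads against the surface antigen ACSA-2, so each library is a bulk measurement in which fewer cells of a type and less RNA per cell cannot be told apart.

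Astrocytes release ATP, which enzymes on the cell surface cut to adenosine, and adenosine acting at the A1 receptor is an endogenous brake on seizures. Extracellular adenosine is taken up through nucleoside transporters and phosphorylated to AMP by adenosine kinase, which in the adult brain is mainly an astrocyte enzyme. Cells also build purines from small precursors through the de novo pathway, and ATP, ADP and UDP-sugars act on P2Y receptors.

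Astrocyte markers dominated every library. The 10 astrocyte markers summed to between 15075 and 21458 TPM (transcripts scaled to the same total in every library), against 120 to 685 TPM for 10 microglial, 35 to 583 TPM for 7 neuronal and 519 to 4451 TPM for 8 oligodendrocyte markers. The sums were 722 to 4722 TPM for 6 markers of mural cells (pericytes and smooth muscle), 326 to 2386 TPM for 8 endothelial and 201 to 946 TPM for 4 ependymal markers. No marker of these lists was at 0 in every library of a group. The ipsilateral library of PTE− mouse 9_14 stood apart, with 10727 genes above 0 TPM where the others had 15599 to 18534. It listed P2ry1, Nt5e and Ada at 0, so the ipsilateral differences that include it and the correlations over libraries are also given without it.

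Adk encodes adenosine kinase and lies on chromosome 14 from 21052574 to 21448569 on the plus strand of GRCm38. RefSeq gives it 2 start sites, 23578 bases apart. GENCODE vM21 lists 5 coding transcripts, of which 1 begins beyond both sites, at 21318125. The deposited value is 1 sum per gene, so use of the starts could not be compared. The 250 bases before each RefSeq site are shown because the single Adk value pools transcripts from both. They were read from RefSeq on GRCm38.p6, with matches to the GC box GGGCGG on either strand in capitals.
Adk upstream start, chr14:21052324-21052573, plus strand: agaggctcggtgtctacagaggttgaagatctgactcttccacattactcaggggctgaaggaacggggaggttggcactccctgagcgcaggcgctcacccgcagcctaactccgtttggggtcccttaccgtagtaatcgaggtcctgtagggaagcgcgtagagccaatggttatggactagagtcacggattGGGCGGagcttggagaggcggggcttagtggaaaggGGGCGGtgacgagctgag
Adk downstream start, chr14:21075902-21076151, plus strand: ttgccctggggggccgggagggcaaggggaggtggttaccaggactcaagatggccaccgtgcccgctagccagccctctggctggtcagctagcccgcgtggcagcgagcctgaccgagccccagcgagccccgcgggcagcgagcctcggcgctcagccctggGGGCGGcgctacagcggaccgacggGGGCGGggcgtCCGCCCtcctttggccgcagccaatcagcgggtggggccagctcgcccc
The upstream window held 2 GC boxes at a GC content of 58.8%, and the downstream window held 3 at 75.2%. At least 1 GC box was found in 32.7% of the 32851 mouse windows of this length, so its presence is common.

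The members covered a wide range of levels on the TPM scale, which is corrected for transcript length. Entpd2 at 410 ± 114 TPM (SD, n = 37 libraries), Adk at 403 ± 55.8 TPM and Adora2b at 380 ± 125 TPM lay within their spread of each other and ranked 316, 325 and 347 of 20635 genes with a value above 0. Adora1 followed at 64.2 ± 15.9 TPM, then P2ry14 at 38.9 ± 19.5 TPM and Slc29a1 at 30.4 ± 6.71 TPM, which overlapped. Pfas averaged 4.66 TPM and P2ry1 4.29 TPM, again within their spread. Ada at 0.699 TPM and Nt5e at 0.695 TPM were the lowest. The most abundant members therefore included an enzyme that takes adenosine away, an enzyme that cuts extracellular ATP and a low-affinity adenosine receptor.

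**Figure D1:**
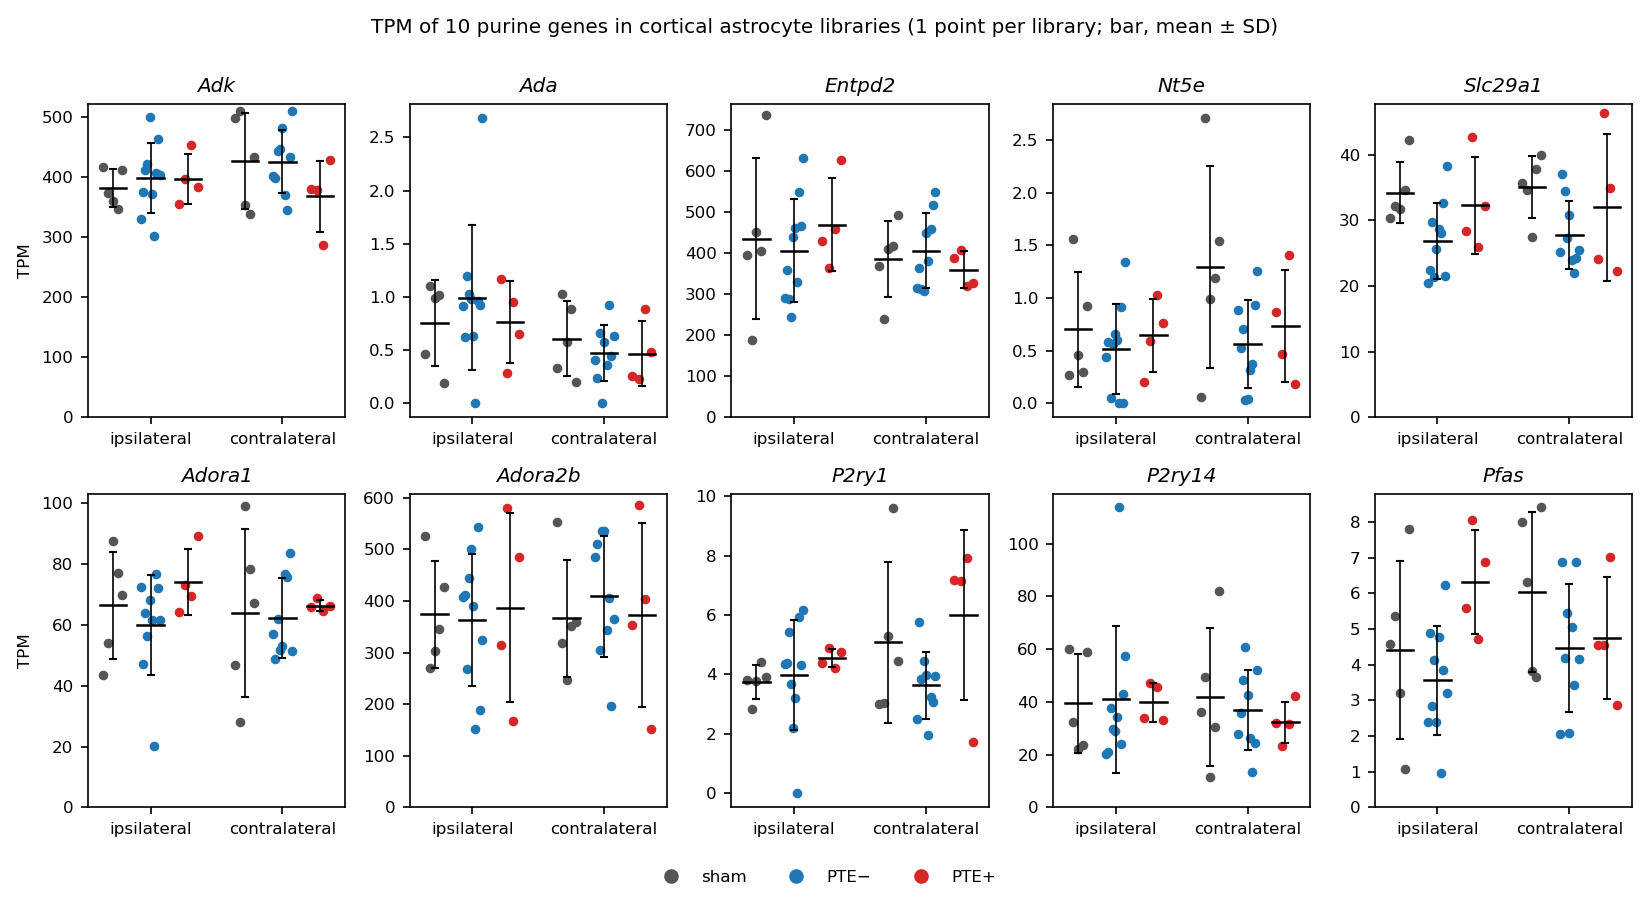
TPM of the 10 genes, 1 panel each, with 1 point per library for sham (grey), PTE− (blue) and PTE+ (red) mice in each hemisphere and bars for the mean ± SD. The groups overlap in every panel, and the ipsilateral PTE− library of mouse 9_14 is the point at 113.74 TPM for P2ry14 and at 20.21 TPM for Adora1.

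Few members differed between groups. A gene was called when its unadjusted limma p was under 0.05 and its fold change on the log2(TPM + 1) scale was at least 1.2, the study's limits, and only genes whose average passed 5 TPM in some group compared were tested. Ipsilaterally, 0 of 6 members tested were called for CCI against sham (1.62% of all genes tested), 1 of 6 for PTE− against sham (1.54%), 0 of 7 for PTE+ against sham (1.56%) and 1 of 7 for PTE+ against PTE− (0.573%). Contralaterally the counts were 0 of 8 for CCI against sham (4.05%), 1 of 8 for PTE− against sham (3.76%), 0 of 8 for PTE+ against sham (1.97%) and 0 of 7 for PTE+ against PTE− (2.79%). The called members were Slc29a1 in both hemispheres and Pfas ipsilaterally. Without mouse 9_14 the ipsilateral counts were again 0 for CCI against sham, 1 for PTE− against sham (Slc29a1) and 1 for PTE+ against PTE− (Pfas), while the shares of all genes called were 3.83%, 3.98% and 1.89%. Of the 57 tests of members by limma, 3 had an unadjusted p under 0.05 and 0 had a Benjamini-Hochberg adjusted p under 0.05. Of 80 two-sided exact permutation tests, 1 for each member and comparison, 4 gave a p under 0.05. This is about as many as a threshold of 0.05 gives by itself. The share over all genes is not given for this test, and the 80 are not independent, since the comparisons share groups and mice. Nt5e and Ada never passed the filter, and Pfas and P2ry1 passed in only some comparisons. Ipsilaterally Pfas passed only through the PTE+ group, where it was higher, and so did P2ry1 in contralateral PTE+ against PTE−. Whether they were tested there thus depended on the difference itself.

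**Figure D2:**
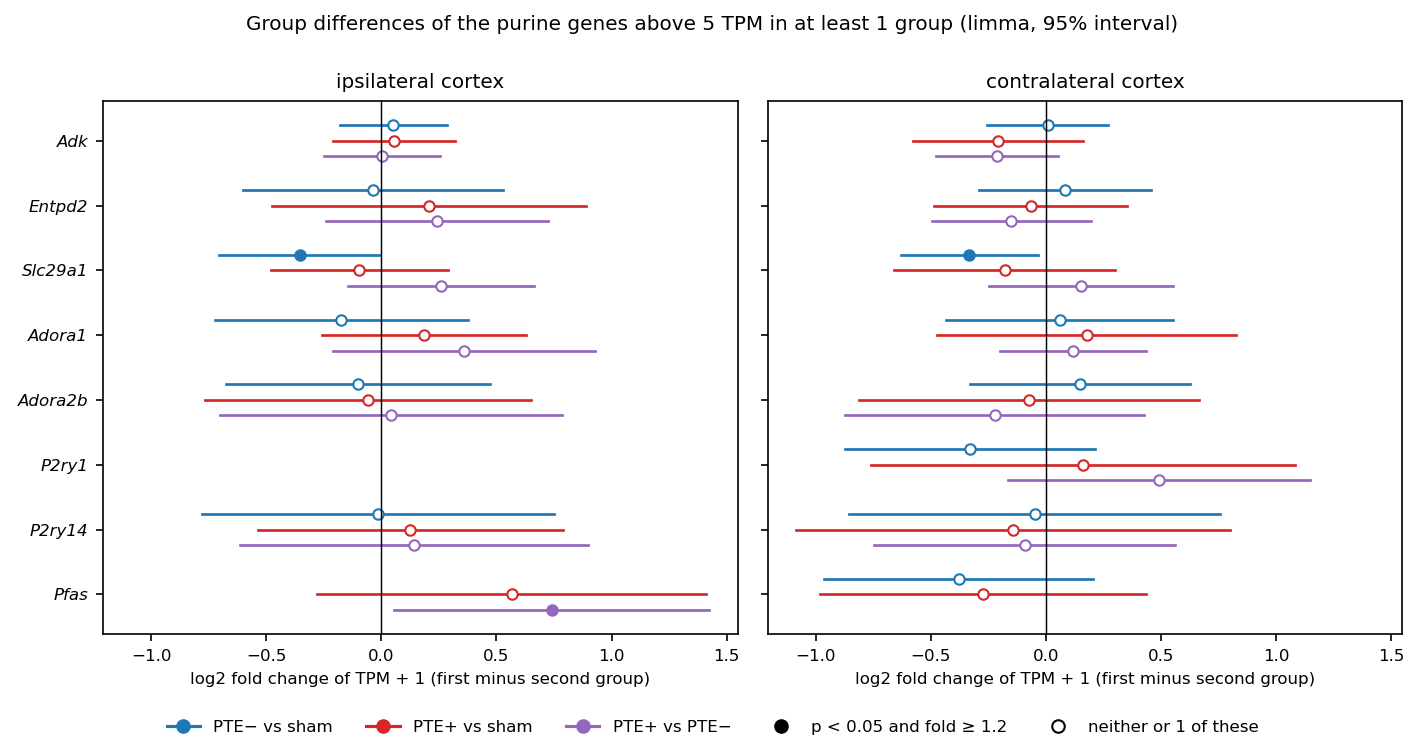
log2 fold change of TPM + 1, with 95% limma intervals, for the members above the TPM filter in each hemisphere. Filled points mark Slc29a1 in PTE− against sham (−0.36 ipsilateral and −0.33 contralateral) and Pfas in ipsilateral PTE+ against PTE− (0.74), and the other intervals cross 0.

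Adk, the enzyme that clears adenosine, did not differ detectably between any groups. Ipsilateral sham libraries held 345.96, 360.85, 373.96, 411.46 and 415.95 TPM, and the PTE+ libraries 355.80, 382.82, 396.03 and 453.77 TPM. The 10 PTE− libraries ran from 301.68 to 499.41 TPM with a median of 405.00 TPM. All 3 groups overlapped throughout. The CCI against sham difference was 0.05 on the log2 scale (SE 0.10, limma p = 0.590, adjusted p = 1), and its 95% interval corresponded to folds of 0.902 to 1.19. PTE+ against PTE− differed by 0.00 (95% interval −0.25 to 0.26), so a change above 1.2-fold in either direction lay at or beyond the interval's ends. Without mouse 9_14 these differences were 0.08 (exact permutation p = 0.316, n = 13 and 5) and −0.04 (exact permutation p = 0.699, n = 4 and 9).

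Contralaterally the 4 PTE+ libraries were at 286.57, 378.42, 379.90 and 427.54 TPM. The PTE− libraries ran from 344.94 to 509.50 TPM with a median of 433.63 TPM, and the sham libraries were at 338.78, 352.70, 433.64, 498.60 and 510.25 TPM. Each PTE+ library was therefore below the PTE− median, but 3 of 4 were inside the PTE− range. The difference of −0.21 (95% interval −0.48 to 0.05) gave an exact permutation p of 0.102 with n = 4 and 9, and a limma p of 0.107. Without PTE+ mouse 9_18 it was −0.29 and was called (limma p = 0.0484), and without mouse 9_17 it was −0.10. The share of all genes called without mouse 9_18 is not given here, so that call has no background beside it.

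Adk was also among the steadier genes. Its coefficient of variation over the 37 libraries was 13.8%, and 6.41% of the 10235 genes with a mean above 5 TPM had a lower one. Without mouse 9_14 these values were 13.3% and 8.56%, and against the 200 genes nearest in level the share was 29.5%. The 5 genes whose deviations from group means followed Adk most closely over the 37 libraries, among 10064 genes, were Uqcrc2 (r = 0.81), Psmd14 (0.80), Txnl1 (0.78), Smarcb1 (0.77) and Hadh (0.76). Without mouse 9_14 their r lay between 0.72 and 0.83. These values share libraries and depth. The oligodendrocyte markers' summed level ran against Adk (r = −0.51 over libraries, or −0.63 without mouse 9_14) and that of astrocyte markers with it (0.47, or 0.41). The neuronal (−0.43, or −0.55) and microglial sums (−0.37, or −0.54) also ran against Adk, and the mural sum with it (0.21, or 0.49). In contralateral PTE+ against PTE−, 9 of 10 astrocyte markers were below 0 (median −0.09), with 0 called. The medians there were 0.07 for oligodendrocyte, 0.07 for microglial, 0.62 for neuronal and 0.16 for mural markers. The part of these cells in the Adk level was not tested.

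Ada, adenosine deaminase, which converts adenosine to inosine, was near the bottom of the range in every group but differed between the sides of the brain. In the 12 injured mice with both hemispheres it ran from 0.28 to 2.68 TPM ipsilaterally (median 0.955) and from 0 to 0.92 TPM contralaterally (median 0.46). The ipsilateral value was the higher in 11 of the 12 mice, by 0.42 on the log2(TPM + 1) scale (SE 0.13, two-sided paired exact permutation p = 0.00830 over 4096 sign patterns, n = 12). In the 5 sham mice the ipsilateral value was higher in 4, by 0.12 (paired exact permutation p = 0.125, n = 5, where 0.0625 is the smallest possible). The difference between injured and sham mice was 0.30 (SE 0.25) and was not tested, because Ada lay below the filter.

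Ada was one of 2 paired tests with a p under 0.05 among 30 on members, both of them its own, over injured and over all mice. The same paired test gave a p under 0.05 for 6.9% of 20635 genes in the injured and for 9.04% in all mice, so 1 of 10 members in each lay near the share over all genes. Microglial markers summed to 151 to 414 TPM ipsilaterally and 153 to 345 TPM contralaterally in the injured mice, and were higher ipsilaterally in 10 of 12. Over all libraries Ada deviated with these markers (r = 0.59, or 0.53 without mouse 9_14), and their part in the result was not tested.

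Entpd2, the ectonucleotidase that cuts ATP to ADP, showed no called difference in any comparison. Its differences between groups lay between −0.15 and 0.24 on the log2 scale, and the ipsilateral sham libraries alone spanned 188.82 to 736.37 TPM. Without mouse 9_14 the ipsilateral differences were 0.06 for CCI and −0.01 for PTE− against sham and 0.21 for PTE+ against PTE−. The PTE− libraries ran from 245.67 to 632.04 TPM (median 399.38) and the PTE+ libraries were at 364.37, 429.20, 458.08 and 627.92 TPM, so the groups overlapped fully. Nt5e, which encodes CD73 and makes adenosine from AMP, reached at most 2.71 TPM in any library. Contralaterally it measured 0.06, 0.99, 1.19, 1.54 and 2.71 TPM in sham and 0.03 to 1.26 TPM (median 0.52) in PTE− libraries, a difference of −0.49 with an exact permutation p of 0.0994 (n = 9 and 5).

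Slc29a1 encodes ENT1, the equilibrative transporter that carries adenosine across the membrane, and was lower in PTE− than in sham mice in both hemispheres. Ipsilaterally the 5 sham libraries were at 30.40, 31.78, 32.14, 34.67 and 42.18 TPM, and the PTE− libraries ran from 20.45 to 38.28 TPM with a median of 26.82 TPM. Of the 10 PTE− libraries, 8 lay below every sham library. Slc29a1 fell by 0.36 on the log2 scale (SE 0.17, exact permutation p = 0.0300, limma p = 0.0475 and adjusted p = 0.999, n = 10 and 5). Contralaterally the sham libraries were at 27.43, 34.66, 35.64, 37.79 and 39.97 TPM and the PTE− libraries ran from 21.96 to 37.13 TPM with a median of 25.47 TPM.

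In that hemisphere 6 of 9 PTE− libraries lay below every sham library, and Slc29a1 fell by 0.33 (SE 0.14, exact permutation p = 0.0250, limma p = 0.0311 and adjusted p = 0.961, n = 9 and 5). The sides are not independent, since they came largely from the same mice. PTE+ libraries overlapped both groups, at 25.96, 28.43, 32.14 and 42.70 TPM ipsilaterally and 22.32, 24.17, 34.95 and 46.42 TPM contralaterally. Their means lay in between, differing from sham by −0.10 and −0.18 and from PTE− by 0.26 and 0.15, and none of these was called. For all injured mice against sham the differences were −0.28 (exact permutation p = 0.0729, or 0.0842 without mouse 9_14) and −0.29 (0.0866). PTE+ against PTE− was 0.27 ipsilaterally without that mouse.

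Within mice whose names begin with 8, the PTE− against sham difference was −0.41 ipsilaterally and −0.19 contralaterally, and within those beginning with 9 it was −0.32 and −0.45. What these numbers stand for is not given in the sources used here. Without mouse 9_14 the ipsilateral difference was −0.36 (exact permutation p = 0.0365, n = 9 and 5). The ipsilateral call was lost without sham mouse 8_16 (−0.38), 9_9 (−0.38), 9_10 (−0.35) or 9_11 (−0.28) and with library weights (−0.28). The contralateral call was lost without 8_15 (−0.32), 9_10 (−0.30) or 9_11 (−0.28), with each library centred on its median (−0.21), with quantile normalization (−0.24) and with all 3 groups in 1 fit (−0.33). All genes tested had a median difference of −0.09 contralaterally.

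Slc29a1 is also made by blood vessel cells, so their markers are given beside it. The 8 endothelial markers summed to 392 to 1622 TPM in ipsilateral sham (median 966), 326 to 1074 TPM in PTE− (733) and 336 to 1533 TPM in PTE+ libraries (846). Contralaterally the medians were 811, 1013 and 1552 TPM, with PTE− above sham. In PTE− against sham, 6 of the 7 endothelial markers tested were below 0 in each hemisphere, with medians of −0.22 and −0.22, and 0 were called.

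Markers of other cells also moved in PTE− against sham. Ipsilaterally all 7 oligodendrocyte markers tested were below 0, with a median of −1.34, and 3 were called lower. Their summed level was 519 to 4451 TPM in sham (median 3072) and 774 to 2257 TPM in PTE− libraries (1333). Of 4 ependymal markers 2 were called higher, with a median of 0.89, and all 6 neuronal markers tested were below 0, at −0.49, with 0 called. Also ipsilaterally, 4 of 6 mural (−0.11) and 1 of 2 oligodendrocyte precursor markers tested (−0.12) were below 0, with 0 called. Contralaterally the 2 oligodendrocyte precursor markers tested were below 0, at −0.37, as were 5 of 7 oligodendrocyte (−0.26), 6 of 6 neuronal (−0.47) and 5 of 6 mural markers (−0.17), with 0 called. Of 7 meningeal and fibroblast markers tested there, 5 were below 0 (−0.26) and 1 was called lower. Over all libraries the deviations of Slc29a1 had r = 0.55 with the oligodendrocyte precursor sum, 0.41 with the mural, 0.10 with the endothelial and −0.32 with the oligodendrocyte sum. Without mouse 9_14 these were 0.56, 0.45, 0.10 and −0.32, and the part of these cells in the result was not tested.

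Adora1, the inhibitory A1 receptor, had no called difference. Ipsilaterally the sham libraries were at 43.65, 54.11, 69.92, 77.16 and 87.62 TPM, the PTE− libraries at 20.21 to 76.87 TPM (median 62.89) and the PTE+ libraries at 64.17, 69.63, 73.33 and 89.23 TPM. All 4 PTE+ values were above the PTE− median, at a difference of 0.36 (95% interval −0.21 to 0.93, exact permutation p = 0.241, n = 4 and 10), which was 0.20 (0.143) without mouse 9_14. Contralateral PTE+ libraries lay between 64.63 and 68.78 TPM, inside the PTE− range of 48.88 to 83.78 TPM and the sham range of 27.98 to 99.17 TPM.

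Adora2b, the low-affinity A2B receptor, was expressed at nearly the level of Adk and was called in no comparison, while single mice lay far apart. PTE+ libraries were at 167.42, 313.99, 486.17 and 580.00 TPM ipsilaterally and 152.17, 353.15, 403.13 and 585.65 TPM contralaterally. Sham libraries ran from 269.49 to 525.77 TPM and from 246.92 to 552.51 TPM, so of these libraries the lowest and the highest on each side were PTE+. The lowest was mouse 9_18, and the other 3 PTE+ libraries, from 313.99 and from 353.15 TPM up, began above the lowest sham. Mean differences between groups were between −0.22 and 0.15 on the log2 scale, with 95% intervals reaching from −0.87 to 0.79. Without mouse 9_14 the ipsilateral differences were 0.00 for CCI and 0.03 for PTE− against sham and −0.08 for PTE+ against PTE−. PTE+ against sham turned from −0.06 to 0.29 ipsilaterally and from −0.07 to 0.30 contralaterally without mouse 9_18.

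The same mice were low or high in Adora2b on both sides. PTE− mouse 9_16 had 188.95 TPM ipsilaterally and 196.92 TPM contralaterally, and PTE+ mouse 9_18 had 167.42 and 152.17 TPM. PTE− mouse 9_12 had 500.86 and 536.52 TPM, and sham mouse 8_15 had 525.77 and 552.51 TPM. After removal of group means the hemispheres correlated over the 17 mice with r = 0.88 (Spearman's rho 0.88), and with r = 0.76 without mice 9_16 and 9_18. Only 1.06% of 10065 genes had a higher r, and the median over genes was 0.49. Without removal of group means r was 0.98 over the 7 mice whose names begin with 8 and 0.92 over the 10 that begin with 9. The hemispheres of a mouse share the animal and possibly its preparation, which cannot be told apart.

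Entpd2 was steadier still between sides, with r = 0.93 over 17 mice (rho 0.91, or r = 0.89 without mice 8_16 and 9_11), exceeded by 0.407% of genes. Its mouse means also followed the first number of the mouse name, with 214.5 to 409 TPM (median 303) in the 7 mice beginning with 8 and 342 to 614 TPM (median 438) in the 10 beginning with 9. Within these sets r, with group means kept, was 0.98 and 0.68. Pfas followed at r = 0.82 and Adora1 at 0.73, then P2ry14 at 0.53 and Adk at 0.49, the last exceeded by 50.1% of genes. Slc29a1 was among the least alike, at r = 0.21, with 83.2% of genes higher. These correlations describe 17 mice whose libraries were normalised in separate tables.

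**Figure D3:**
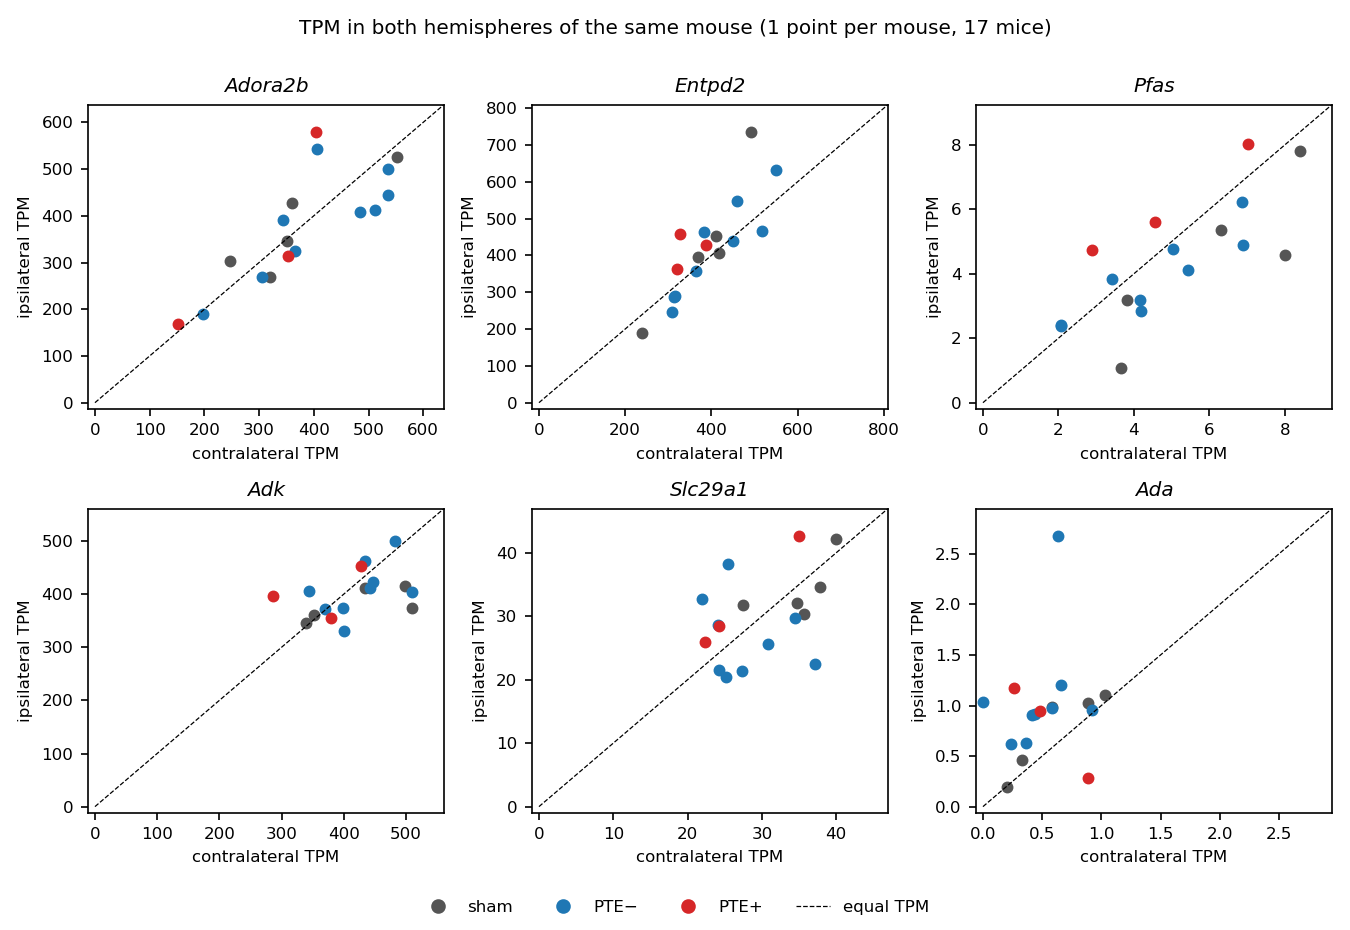
Ipsilateral against contralateral TPM for 6 members, 1 point per mouse for 17 mice, with the dashed line at equal TPM. Adora2b and Entpd2 run along the line (r of deviations 0.88 and 0.93), Slc29a1 scatters (0.21), and Ada lies above the line in 15 of 17 mice.

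P2ry1, the ADP receptor behind many astrocyte calcium responses, was low. Ipsilateral PTE+ libraries were at 4.22, 4.40, 4.75 and 4.89 TPM and sham libraries at 2.85, 3.77, 3.81, 3.93 and 4.41 TPM, so the groups overlapped only slightly. The difference of 0.23 (SE 0.10) had an exact permutation p of 0.0397 (n = 4 and 5), but lay below the 5 TPM filter. The ipsilateral PTE− libraries other than mouse 9_14, at 0 TPM, ran from 2.20 to 6.17 TPM, around all PTE+ values. PTE+ against PTE− was 0.32 (exact permutation p = 0.545), or 0.08 (0.708) without mouse 9_14. For CCI against sham the difference was 0.01 (exact permutation p = 0.988, n = 14 and 5). Contralaterally 3 PTE+ libraries were at 7.16, 7.18 and 7.94 TPM, above every PTE− library (1.95 to 5.78 TPM, median 3.83), and the fourth, from mouse 9_18, was at 1.72 TPM, below all of them. With all 4 the difference was 0.49 (95% interval −0.17 to 1.15, exact permutation p = 0.143, n = 4 and 9), and without mouse 9_18 it was 0.90 and called (limma p = 0.00272). Sham libraries reached 9.60 TPM, and PTE+ against sham differed by 0.16 (exact permutation p = 0.722, n = 4 and 5).

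P2ry14, the receptor for UDP-glucose and related sugars, had no called difference, with values between −0.14 and 0.14 on the log2 scale in all 8 comparisons. Without the ipsilateral library of mouse 9_14 it was 0.32 for PTE+ against PTE− (exact permutation p = 0.238, n = 4 and 9) and −0.20 for PTE− against sham (exact permutation p = 0.520, n = 9 and 5), still uncalled. Its largest value was 113.74 TPM in the ipsilateral PTE− library of mouse 9_14, where the other PTE− libraries had 20.34 to 57.40 TPM. P2ry14 instead moved with the summed level of 6 mural cell markers, which label pericytes and smooth muscle. The deviations of the pair had r = 0.89 over 37 libraries and 0.87 without mouse 9_14, while those with the astrocyte sum had −0.05 and 0.11. P2ry14 also ran against the oligodendrocyte sum (−0.72 with and without mouse 9_14) and the microglial sum (−0.46, or −0.37). With the oligodendrocyte precursor sum it had r = 0.40, or 0.33 without mouse 9_14. The mural sum was 4722 TPM in the ipsilateral library of mouse 9_14 and 722 to 2581 TPM in the others. P2ry14 and Adora1 ran in opposite directions, at r = −0.63, or −0.52 without mouse 9_14. These are descriptions across libraries that share preparation, and the part of mural or other cells in the P2ry14 level was not tested.

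**Figure D4:**
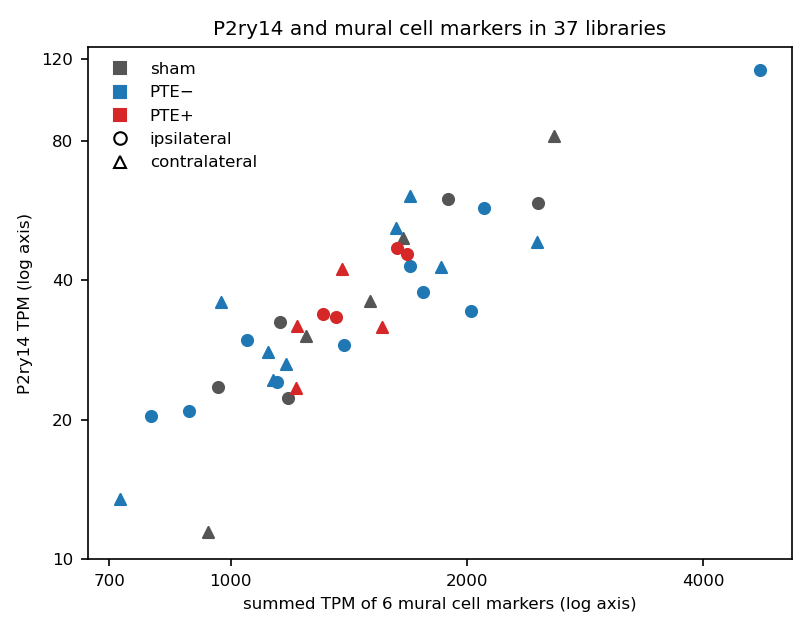
P2ry14 TPM against the summed TPM of 6 mural cell markers in each of 37 libraries, both on log axes, with colour for the group and shape for the hemisphere. The points follow 1 rising band over all groups (r of deviations 0.89), with mouse 9_14 at the top right.

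Pfas encodes phosphoribosylformylglycinamidine synthase, an enzyme of de novo purine synthesis. In the ipsilateral cortex PTE+ libraries were at 4.73, 5.6, 6.87 and 8.04 TPM and PTE− libraries at 0.96 to 6.23 TPM with a median of 3.53 TPM. All 4 PTE+ libraries were above the PTE− median and 2 were above every PTE− library. Pfas rose by 0.74 (95% interval 0.06 to 1.42, exact permutation p = 0.0240, limma p = 0.0355 and adjusted p = 0.977, n = 4 and 10), where all genes tested had a median of 0.12. It passed the 5 TPM filter only through the PTE+ group (mean 6.31 TPM, against 3.57 TPM in PTE−), so its call depends on the difference itself. Pfas was also already known from earlier results of these data, so its rise adds no independent evidence. Sham libraries spanned 1.08 to 7.80 TPM, around both groups, and PTE+ against sham differed by 0.57 (95% interval −0.28 to 1.41).

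The size of the Pfas difference was 0.57 among mice beginning with 8 (1 PTE+ library) and 0.81 among those beginning with 9. Without mouse 9_14 it was 0.61 (exact permutation p = 0.0182, n = 4 and 9). It was no longer called without PTE+ mouse 8_10 (0.78), 9_17 (0.63) or 9_19 (0.70), with quantile normalization (0.43, limma p = 0.139) or with a pseudocount of 0.1 (0.92, limma p = 0.0601). In this comparison 8 of 9 microglial markers tested were below 0 (median −0.20), all 6 neuronal markers were above 0 (0.56) and 5 of 6 oligodendrocyte markers were above 0 (0.65), with 0 of them called. Over all libraries the deviations of Pfas had r = −0.33 with the microglial sum (−0.51 without mouse 9_14), −0.07 with the neuronal (−0.16) and −0.20 with the oligodendrocyte sum (−0.31), and their part in the result was not tested. Contralaterally PTE+ libraries were at 2.88, 4.55, 4.56 and 7.02 TPM and PTE− libraries at 2.06 to 6.88 TPM, a difference of 0.10 (exact permutation p = 0.724, n = 4 and 9). The difference between the hemispheres' PTE+ effects was 0.47 (limma p = 0.340, and 0.0857 with the mouse as a block), so the effect was not shown to differ between sides. For that difference 0 of 8 members tested were called without the pairing by mouse, beside 0.58% of all genes.

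Pfas was also compared between the sides of the same mouse. In sham mice it was 4.57, 5.37, 3.20, 1.08 and 7.80 TPM ipsilaterally and 8, 6.32, 3.81, 3.66 and 8.41 TPM contralaterally, in the order of mice 8_15, 8_16, 9_9, 9_10 and 9_11. The ipsilateral value was the lower in 5 of 5, at −0.47, with a paired exact permutation p of 0.0625, the smallest that 5 pairs allow. The limma fit did not call this difference without the pairing (p = 0.155) and called it with the mouse as a block (p = 0.0134), where 8.72% of all genes were called. In injured mice it was higher ipsilaterally in 6 of 12, at −0.02. Pairing by mouse, the difference of 0.45 between the injured and sham sets was called (limma p = 0.0414, adjusted p = 0.750), and without the pairing it was not (0.252). With the pairing 6.2% of all genes were called for it, so 1 of 8 members lay near the share over all genes. Without the pairing 0 of 8 members tested were called for this difference, beside 1.8% of all genes, and 0 of 8 for the sides of sham mice, beside 2.72%.

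The other genes of purine metabolism and signalling were counted from a list of 69, of which 43 to 45 passed the filter in a comparison. Ipsilaterally 1, Ahcy, was called, higher, for each of CCI (1 of 44, beside 1.62% of all genes tested), PTE− (1 of 44, 1.54%) and PTE+ against sham (1 of 43, 1.56%). For PTE+ against PTE− it was 0 of 44 (0.573%). Ahcy passed the filter against sham only through the injured groups (means of 7.8, 8.4 and 6.2 TPM, against 1.4 TPM in sham), so its calls depend on the difference itself. Its differences were 1.75 (exact permutation p = 0.0292, n = 14 and 5), 1.76 (exact permutation p = 0.0516, n = 10 and 5) and 1.72 (exact permutation p = 0.0635, n = 4 and 5), and the first 2 were 1.58 and 1.51 and called without mouse 9_14. The call against sham was lost for CCI without sham mouse 8_15, 9_10 or 9_11 (1.58 to 1.63), for PTE− without these or 9_9 (1.59 to 1.67), and for PTE+ without these 4 or PTE+ mouse 8_10, 9_17 or 9_18 (1.44 to 1.63). The PTE+ call was also lost with no filter, with quantile normalization, with median centring and with all 3 groups in 1 fit. Contralaterally 1 of 45, Gart, was lower for CCI against sham (beside 4.05% of all genes tested). For PTE+ against PTE− 1 of 44, Impdh1, was higher (2.79%). For PTE+ against sham 2 of 45, Ahcy and Impdh1, were higher (1.97%), and 0 of 45 were called for PTE− against sham (3.76%). Counts this small do not set the list apart from all genes. The list's median differences lay between −0.05 and 0.08, beside −0.09 to 0.12 for all genes tested. The de novo pathway, with all 12 listed genes above the filter ipsilaterally, had 0 called there.

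Impdh1, inosine monophosphate dehydrogenase of guanine nucleotide synthesis, was the gene higher in contralateral PTE+ against PTE− mice. PTE+ libraries were at 18.61, 24.60, 26.03 and 42.21 TPM and PTE− libraries ran from 8.83 to 23.55 TPM, so 3 of 4 PTE+ libraries were above all PTE− libraries. Impdh1 rose by 0.84 (SE 0.24, exact permutation p = 0.00559, limma p = 0.00268 and adjusted p = 0.999, n = 4 and 9) and was called under all alternatives run for it. Against sham, at 13.64, 17.22, 17.35, 21.00 and 21.21 TPM, it rose by 0.55 (exact permutation p = 0.0317, n = 4 and 5), a call lost without PTE+ mouse 8_10 (0.59), 8_17 (0.56) or 9_17 (0.34), or sham mouse 8_15 (0.46), 8_16 (0.54) or 9_11 (0.54). Contralateral endothelial sums were 736 to 2386 TPM in PTE+ and 502 to 1374 TPM in PTE− libraries, and all 7 endothelial markers tested were above 0, with a median of 0.72 and 2 called higher. All 6 neuronal markers tested were also above 0, at a median of 0.62, with 1 called higher. Of 9 microglial markers tested 4 were below 0, at a median of 0.07, with 0 called. The deviations of Impdh1 had r = 0.41 with the endothelial, 0.59 with the microglial and 0.37 with the neuronal sum, or 0.56, 0.54 and 0.31 without mouse 9_14, and their part was not tested.

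Gart, which catalyses 3 steps of the de novo pathway, was lower in contralateral CCI than sham libraries. The sham values were 30.55, 36.07, 42.40, 44.96 and 45.14 TPM and the injured values ran from 25.77 to 39.46 TPM. Gart fell by 0.27 (SE 0.13, exact permutation p = 0.0403, limma p = 0.0455 and adjusted p = 0.978), and the call was lost when libraries were centred on their medians (−0.17), with quantile normalization (−0.19), with library weights and with all 3 groups in 1 fit (both −0.27). It was also lost without sham mouse 8_15, 8_16 or 9_11 (−0.24, −0.22 and −0.22) or PTE+ mouse 8_10 or 9_18 (−0.26 and −0.25). P2rx6, an ATP-gated channel subunit, was higher ipsilaterally than contralaterally in 10 of 12 injured mice, by 0.39 (paired exact permutation p = 0.00293, n = 12). The paired test gave a p under 0.05 for 8.64% of 10065 genes, and limma without the pairing gave P2rx6 an adjusted p of 0.9998. In sham mice P2rx6 was higher ipsilaterally in 3 of 5, by 0.13 (paired exact permutation p = 0.5). Among the members, limma without the pairing called 0 of 8 tested between the sides of injured mice, beside 2.22% of all genes.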

How the data were processed

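Cortical astrocytes were isolated with ACSA-2 MicroBeads, and libraries were made with SMART-Seq v4 and sequenced by a service provider. Reads were trimmed with Trim Galore 0.6.4 and quantified on mm10 by RSEM 1.2.28 with Bowtie2 2.4.1, and the deposited values are TPM per Ensembl gene, 1 table per hemisphere. The authors called genes with DESeq2 1.36.0 on raw counts. TPM keep no depth, so counting intervals and a count test were not computed, and precision rests on the number of mice. The annotation release is not given in the sources used here. Replicates are separate mice. The TPM values used here held no library for ipsilateral PTE+ mouse 8_17, contralateral PTE+ mouse 9_19 or contralateral PTE− mouse 9_14.

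Symbols and positions were taken from GENCODE vM21 on GRCm38 (21856 of 21975 identifiers matched). Differences were tested on log2(TPM + 1) with limma 3.58.1 (trend) in R 4.3.3, over the genes averaging more than 5 TPM in some group compared, with two-group fits and Benjamini-Hochberg adjustment over all genes tested. For single members a two-sided exact permutation test was run over libraries, or over within-mouse signs. The steps were tested on simulated data. Each named member was fixed by symbol, and other purine genes were named where called. The members and lists were chosen with earlier results of these data known. Hemispheres of 1 mouse are pairs: deviations from group means correlated in 16 of 17 mice above 0.1 (median r 0.43). Alternatives were another pseudocount (0.1), no filter, other scaling, library weights, a joint fit, the mouse name's first number, and leaving out mice.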

Additional observations from a re-analysis of the deposited data

Results flagged for a closer look

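Of 60 groups of 4 to 10 libraries, 3 held a library far from the rest, 1 for Adora1 and 2 for P2ry1, and chance alone flags about 1 in 20 groups. The ipsilateral PTE− library of mouse 9_14 had 20.21 TPM of Adora1, where the other 9 had 47.19 to 76.87 TPM, and it listed P2ry1 at 0 TPM, where the others had 2.20 to 6.17 TPM. This is the library with 10727 genes above 0. The contralateral PTE+ library of mouse 9_18 had 1.72 TPM of P2ry1, where the other 3 had 7.16 to 7.94 TPM, and the same mouse was at 4.22 TPM ipsilaterally.

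With each mouse paired with itself, the difference between hemispheres of the CCI effect on Pfas was called. Without the pairing it was not (limma p = 0.252). With the pairing, the ipsilateral effect exceeded the contralateral by 0.45 on the log2 scale (limma p = 0.0414, adjusted p = 0.750), where 6.2% of all genes were called. Pfas was lower ipsilaterally in 5 of 5 sham mice, by −0.47, while the injured mice differed by −0.02.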

How the results depend on the processing

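Over 110 results on members, 1520 alternative values were computed, of which 1488 kept their direction and their side of the threshold (or stayed within 1 SE of 0, as in 123 where the sign differed), 16 lost a call, 11 gained one and 5 reversed. The count of members called for ipsilateral CCI against sham went from 0 to 1 (Slc29a1) with quantile normalization and with median centring, and ranged from 0 to 1 when mice were left out. For ipsilateral PTE+ against PTE− it went from 1 to 0 (Pfas) with a pseudocount of 0.1 (0.92) and quantile normalization (0.43), and ranged from 0 to 1 when mice were left out. For ipsilateral PTE− against sham it went from 1 to 0 (Slc29a1) with library weights (−0.28), and ranged from 0 to 1 when mice were left out. For ipsilateral PTE+ against sham (Pfas, 0.78, without sham mouse 9_11, where the share of all genes called went from 1.56% to 9.95%) and contralateral CCI against sham (Slc29a1, −0.34 when PTE+ mouse 8_17 and −0.37 when sham mouse 9_9 was left out) it ranged from 0 to 1. For contralateral PTE+ against PTE− it went from 0 to 1 with library weights (P2ry1, 0.64, where that share went from 2.79% to 7.94%), and ranged from 0 to 2 when mice were left out (Adk and P2ry1 without mouse 9_18). For contralateral PTE− against sham it went from 1 to 0 (Slc29a1) with quantile normalization (−0.24), median centring (−0.21) and all 3 groups in 1 fit (−0.33), and ranged from 0 to 1 when mice were left out. Between hemispheres of injured mice it went from 0 to 1 (Ada) with no filter on TPM. With the mouse as a replicate block the count for the difference between hemispheres of the CCI effect went from 0 to 1 (Pfas, 0.45). The block changed no other count for the injured mice's hemispheres or the PTE+ effect, both 0, and in shams Pfas was called with it (−0.47, limma p = 0.0134, adjusted p = 0.461). For settings whose share of all genes called is not printed here, the counts have no background beside them. The causes were not tested.

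Without 1 mouse, 5 uncalled differences reversed. Entpd2 in ipsilateral CCI against sham ran from −0.24 to 0.25, Adora2b in PTE+ against sham from −0.30 to 0.29 ipsilaterally and −0.34 to 0.30 contralaterally, and Adora1 from −0.16 to 0.28 in contralateral CCI and −0.20 to 0.25 in contralateral PTE− against sham. TPM keep no depth, so how far depth limits the members near or below 5 TPM could not be tested.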

Other observations

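Ahcy, which splits S-adenosylhomocysteine into adenosine and homocysteine, was the purine gene called against sham in the ipsilateral comparisons, and its level fell into 2 separate ranges. It was 0.08 to 1.14 TPM in 17 libraries and 4.59 to 24.73 TPM in 20, with 0 libraries in between. The 2 hemispheres of a mouse were always in the same range, with 8 mice low on both sides, 9 high on both and 0 divided, and r between hemispheres was 0.97. Of the mice with both hemispheres, 1 of 5 sham, 5 of 9 PTE− and 3 of 3 PTE+ mice were in the high range, and PTE+ mouse 9_19, with the ipsilateral library alone, was at 0.28 TPM. The contralateral rise in PTE+ against sham was 1.81 (exact permutation p = 0.0397, n = 4 and 5, limma p = 0.00271 and adjusted p = 1). Ahcy passed the filter there only through the PTE+ group (mean 7.37 TPM, against 2.05 TPM in sham). The ranges were seen in the data before they were counted, so this is a description with no test.

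Aprt, which salvages adenine, was higher ipsilaterally than contralaterally in 4 of 5 sham mice, by 0.32 (paired exact permutation p = 0.125, n = 5, where 0.0625 is the smallest possible). The limma fit without the pairing gave p = 0.00931 (adjusted p = 0.998) in sham mice. In injured mice Aprt was also higher ipsilaterally, in 9 of 12, by 0.19 (paired exact permutation p = 0.0288, n = 12). Over all mice it was higher in 13 of 17, by 0.23 (paired exact permutation p = 0.00266, n = 17). The same paired test gave a p under 0.05 for 8.64% of 10065 genes in injured and 11.9% in all mice. Among the other listed purine genes the highest mean levels were those of Ak3 at 192 TPM, Paics at 188 TPM and Pnp at 148 TPM, all below the levels of Adk, Entpd2 and Adora2b.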
